A study of Mus musculus with 4 samples.

Results

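The regions described here are wide stretches at gene starts whose H3K9ac the authors' comparison assigned to condition 2, taken here as choline-supplemented HT22 cells. H3K9ac is the acetylation of lysine 9 on the tail of histone H3. A region was taken as broad and at a start when it was assigned to condition 2, was 400 bp wide or more and overlapped the 1000 bp on either side of a transcript start of any protein-coding gene. Of 45855 regions in the authors' deposited table, 631 met these criteria (1.38%). They are set below against the 12516 condition 2 regions at starts that were narrower than 400 bp, and where it bears on them against the 330 broad condition 2 regions away from starts. The members were thus chosen by their measured width, together with the authors' assignment to condition 2, and both are given as a description.

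HT22 is an immortalised line of mouse hippocampal neurons. Cultures received choline chloride for 48 h at 70 µM (labelled SUP, supplemented) or at 5 µM (labelled CON, control). The series has 4 libraries, 2 of H3K9ac ChIP DNA and 2 of input DNA, and the labels do not state which choline level each library came from. Condition 2 was taken to be the 70 µM cells and condition 1 the 5 µM cells because the name of the authors' comparison gives 5 before 70, and each statement of direction depends on that order. With at most 1 ChIP library per choline level there were no replicates, the read depth was unknown, and no p-value could be given. Intervals in brackets are exact (Clopper-Pearson) 95% binomial intervals and cover counting over regions or genes only. Beside a count of 0, "up to" gives the share that 3 counts of the total would make, which is another and lower limit than the upper end of the exact interval.

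H3K9ac is deposited by acetyltransferases and removed by histone deacetylases, and at active genes it lies on the nucleosomes that flank the transcription start. It is usually strongest on the nucleosomes just inside the gene, downstream of the gap where the polymerase assembles. Many mammalian starts, above all those of genes used in every cell, lie in CpG islands, stretches rich in the CG dinucleotide that stay free of DNA methylation.

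The sequences of the members ranged from dense CpG islands to stretches with no CG at all. The central 150 bases of 5 members and of a narrower region are shown to make that range visible. All are from the plus strand of mm10 (RefSeq, assembly GRCm38.p6), written 5′ to 3′, with each CG in capitals and every other base in lower case. The widest member lay at Rpl38, a protein of the large ribosomal subunit, and the stretch shown is chr11:114669780-114669929. Sertad4 had the highest CpG density of all members (chr1:192855293-192855442). Krt81, a hair keratin, had the median density, and 33.5% of the 31-base words in its region occur more than once in the genome (chr15:101463548-101463697). Sfi1, which encodes a centrin-binding protein, had the lowest density (chr11:3141513-3141662). Gm10800, a predicted gene, had the highest score and was added after the values were seen (chr2:98666865-98667014). Zfp938, a zinc finger gene, gives the narrower region of median width and CpG density (chr10:82241528-82241677).
Rpl38: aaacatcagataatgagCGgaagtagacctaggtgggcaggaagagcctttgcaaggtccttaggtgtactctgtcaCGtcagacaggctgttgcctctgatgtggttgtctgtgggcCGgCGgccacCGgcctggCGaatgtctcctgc
Sertad4: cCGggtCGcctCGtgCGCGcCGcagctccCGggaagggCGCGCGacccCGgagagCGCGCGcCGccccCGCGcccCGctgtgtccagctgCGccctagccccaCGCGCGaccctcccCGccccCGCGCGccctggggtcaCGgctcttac
Krt81: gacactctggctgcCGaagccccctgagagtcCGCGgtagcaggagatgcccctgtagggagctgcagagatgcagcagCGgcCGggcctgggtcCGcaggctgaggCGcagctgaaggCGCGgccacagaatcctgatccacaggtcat
Sfi1: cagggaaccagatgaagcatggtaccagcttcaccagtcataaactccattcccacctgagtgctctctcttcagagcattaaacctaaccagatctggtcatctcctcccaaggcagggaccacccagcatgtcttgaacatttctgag
Gm10800: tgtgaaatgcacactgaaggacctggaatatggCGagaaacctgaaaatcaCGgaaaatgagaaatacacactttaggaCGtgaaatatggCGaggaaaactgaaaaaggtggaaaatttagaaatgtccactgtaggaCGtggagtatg
Zfp938, narrower: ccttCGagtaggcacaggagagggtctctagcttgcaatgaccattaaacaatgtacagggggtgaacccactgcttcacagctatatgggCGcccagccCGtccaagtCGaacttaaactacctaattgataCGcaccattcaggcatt
The Sertad4 stretch holds 27 CG sites in 150 bases, the Krt81 stretch 9, the Rpl38 stretch 6, the Gm10800 stretch 5 and the Sfi1 stretch 0, and the narrower Zfp938 stretch holds 5. Over whole regions the density was 16.83 CpG per 100 bp at Sertad4, 4.39 at Krt81 and 0.00 at Sfi1, and 2.75 at the narrower Zfp938 region.

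The 631 regions had a median width of 467 bp (quartiles 427 and 544.5, widest 1118 bp), and the narrower start-site regions had a median of 182 bp (quartiles 152 and 220). They made up 4.8% of the 13147 condition 2 regions at starts. Broad regions lay at starts more often than narrower ones did: 631 of 961 broad condition 2 regions were at a start (65.7%, 62.6 to 68.7), against 12516 of 44534 narrower ones (28.1%, 27.7 to 28.5). In condition 1, 0 of 360 regions reached 400 bp, which allows a share of up to 0.833%, and the widest condition 1 region at a start was 289 bp. At the threshold, 32 members were 400 to 404 bp wide, with a median of 3.11 CpG per 100 bp and 23 midpoints downstream of the start. Just outside it, 31 start-site regions were 395 to 399 bp wide, with a median of 4.53 CpG per 100 bp and 19 midpoints downstream. Members of exactly 400 bp lay at 0610010K14Rik, Atp8b2, Catip, Golt1b, Myh10, Nab2 and Rpf1, and regions of 399 bp at AW146154, Mcu and Pheta1.

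The Rpl38 region spanned 1118 bp (chr11:114669296-114670413), from 670 to 1787 bp downstream of the nearest start, in exons and introns behind the first intron of transcript Rpl38-202. Next was Myc, the transcription factor that drives growth programmes, with 1101 bp (chr15:61985573-61986673) from 349 bp upstream of a start to 751 bp downstream. Most of the Myc region, 722 bp, lay in the first intron of transcript Myc-207. Lrp1, an endocytic receptor of the LDL receptor family, followed with 986 bp, of which 601 bp lay in the first intron. Bcar3, an adaptor of focal adhesion signalling, carried 935 bp that lay wholly upstream, between positions -1476 and -542 bp relative to the nearest start. These 4 regions show each arrangement found among the members: inside the gene, across the start and in front of it.

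Pairs of genes with neighbouring starts shared several of the widest regions. A 914 bp region reached the windows of 0610012G03Rik and Ncbp2, the small subunit of the nuclear cap-binding complex. A region of 900 bp lay at Gatc, part of the mitochondrial enzyme that makes glutaminyl-tRNA, and Triap1, an apoptosis inhibitor. The region of 894 bp covered Exosc8, a subunit of the RNA exosome, and Alg5, an enzyme of N-glycan synthesis. At 876 bp the region of the predicted gene Gm49450 also reached the start window of Tuba1a, an alpha-tubulin of the neuronal cytoskeleton. Such shared regions cannot be assigned to either gene of a pair from position alone.

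The rest of the 15 widest were single-gene regions. Rbpj, the DNA-binding partner of Notch, had 881 bp, Klf7, a zinc finger factor of the Krüppel-like family, 850 bp and Sbno1 846 bp. Ehmt2, which encodes the H3K9 methyltransferase G9a, had 845 bp that ran from 311 bp upstream to 533 bp downstream of a start, and Trip6, a LIM protein of focal adhesions, had 844 bp. Of the 15, 14 had the midpoint downstream of the nearest start and 8 contained that start. The predicted genes Gm14326 (942 bp) and Gm10800 (860 bp) were the remaining ones, and both lay in multi-copy sequence, described below.

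**Figure D1:**
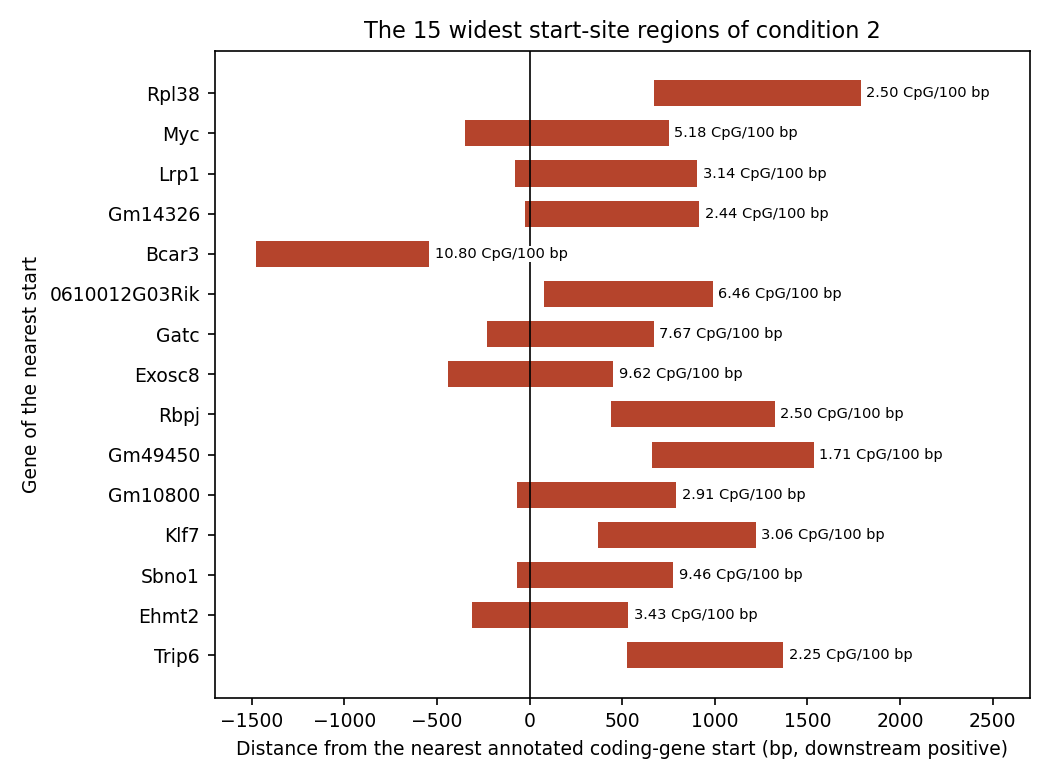
Extent of the 15 widest members relative to the nearest annotated start (x axis, bp, downstream positive; the vertical line is the start), with a bar per region and its CpG density printed beside it. The Rpl38 bar lies wholly downstream, the Myc bar spans the start from -349 to 751 bp, and the Bcar3 bar alone lies wholly upstream.

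Broad regions leaned further into the gene than narrower ones. The midpoint lay downstream of the nearest start in 459 of 631 broad regions (72.7%, 69.1 to 76.2), against 7787 of 12516 narrower ones (62.2%, 61.4 to 63.1). On either side of the threshold this share was alike, 69.6% from 300 to under 400 bp and 70% from 400 to under 450 bp. Among the widest members it was 64.6% from 600 to under 700 bp (48 regions) and 87.8% at 700 bp or more (49 regions). The median midpoint was 273 bp downstream for broad regions and 136.5 bp for narrower ones. The upstream edges of both classes had similar medians, 22 bp downstream of the start for broad and 38 bp for narrower regions. The downstream edges differed, with medians of 522 bp for broad and 236 bp for narrower regions. The medians of the edges thus lay further apart on the gene side.

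The share of regions lying wholly downstream was about the same, 51.7% (47.7 to 55.6) of broad and 52.8% (51.9 to 53.6) of narrower regions. The classes differed in the regions wholly upstream, 88 broad ones (13.9%, 11.3 to 16.9) against 29.8% of narrower ones (29 to 30.6). They also differed in the regions that contained the nearest start, 217 broad ones (34.4%, 30.7 to 38.2) against 17.5% of narrower ones (16.8 to 18.2). Next to the threshold the shares containing the start were close, 28.4% from 300 to under 400 bp and 28.8% from 400 to under 450 bp. A wider region is more likely to contain a start by its length alone, so containment and reach are no independent measure of position.

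Position by position, the broad regions were most often found 250 bp downstream of the start, which 45.8% of them covered. Narrower regions peaked 50 bp downstream, at 18%. At 500 bp downstream the coverage was 39% for broad and 11.2% for narrower regions, and at 500 bp upstream it was 8.40% for broad and 5.87% for narrower regions.

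**Figure D2:**
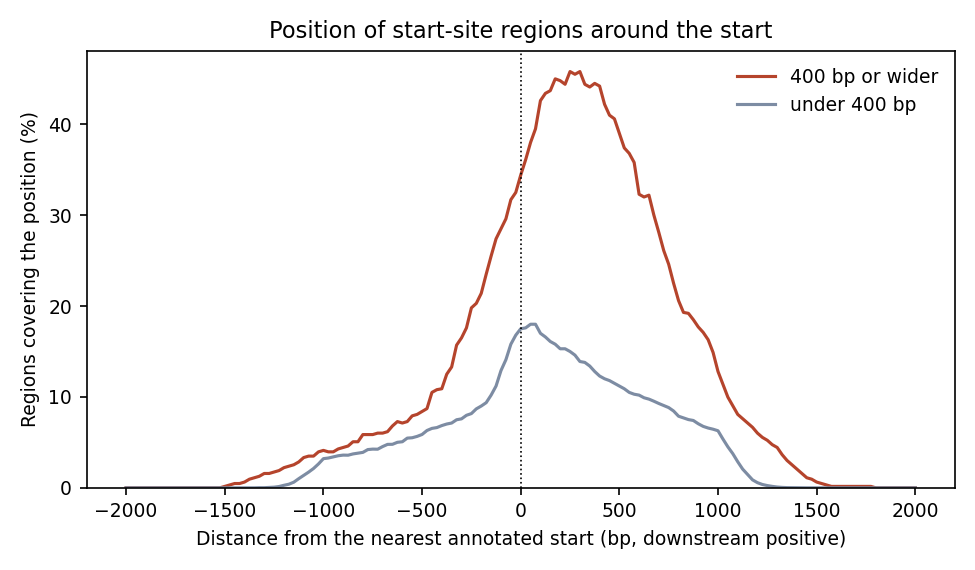
Percentage of broad (red) and narrower (grey) start-site regions that cover each position from 2 kb upstream to 2 kb downstream of the nearest annotated start (x axis, bp; dotted line, the start), in steps of 25 bp. The broad curve peaks at 45.8% at 250 bp downstream and the narrower curve at 18% at 50 bp.

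By the annotation of the nearest transcript, the first intron held the largest share of the bases in broad regions. It took 45.6% of their bases, the first exon 20.9%, sequence upstream of the start 27.4% and later exons and introns 5.32%. For narrower regions the first intron held 38%, the first exon 19.3%, upstream sequence 37% and later exons and introns 4.94%. Of the broad regions, 425 reached into the first intron (67.4%) and 250 overlapped coding sequence (39.6%), against 45.6% and 24.6% of narrower ones. Such reach grows with width. As a share of bases, coding sequence took 12.2% of broad and 11.9% of narrower regions, which is nearly equal.

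The nearest start more often had a divergent neighbour in broad regions. Such a neighbour is a start of another gene on the opposite strand, at most 1000 bp upstream of the nearest start. It was found for 135 broad regions (21.4%, 18.3 to 24.8), against 15.7% of narrower ones (15.1 to 16.4). Counting protein-coding neighbours alone gave 82 broad regions (13%, 10.5 to 15.9) against 8.99% (8.49 to 9.50). The windows of more than 1 coding gene were reached by 101 broad regions (16%) and by 10.5% of narrower ones, a count that grows with width.

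CpG density was higher in broad than in narrower regions. The median was 4.39 CpG per 100 bp in broad regions (quartiles 2.24 and 7.97) and 2.91 in narrower ones (quartiles 1.36 and 6.49), a difference of 1.49. Next to the threshold the classes were alike, with medians of 3.94 from 300 to under 400 bp and 3.85 from 400 to under 450 bp. Broad regions away from starts had a median of 1.32. Measured in the 300 bp centred on each region, the medians were 4.33 in broad and 3 in narrower start-site regions. This central 300 bp has the same length for all, but it reaches past the edges of most narrower regions. GC content had a median of 57.2% in broad and 54.6% in narrower regions. The usual island limits, GC content over 50% with a ratio of observed to expected CpG over 0.6, were met by 297 broad regions (47.1%, 43.1 to 51), against 31.8% of narrower ones (31 to 32.6) and 8.18% of broad regions away from starts.

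Position and CpG density went together, and the difference between the classes varied with position. With the midpoint within 100 bp of the start, the central 300 bp had 6.67 CpG per 100 bp in 97 broad regions and 6.33 in 2215 narrower ones. From 100 to 500 bp downstream, where 235 broad regions lay, the medians were 6 in broad and 4.67 in narrower regions. From 100 to 500 bp upstream they were 4.33 in 75 broad and 2.67 in 2041 narrower regions. Over 500 bp from the start the medians were close, 2.33 in broad and 2 in narrower regions downstream, and 2 in broad and 1.67 in narrower regions upstream. Broad regions made up 6.31% of the start-site regions whose midpoint lay 100 to 500 bp downstream, and 2.89% of those over 500 bp upstream.

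**Figure D3:**
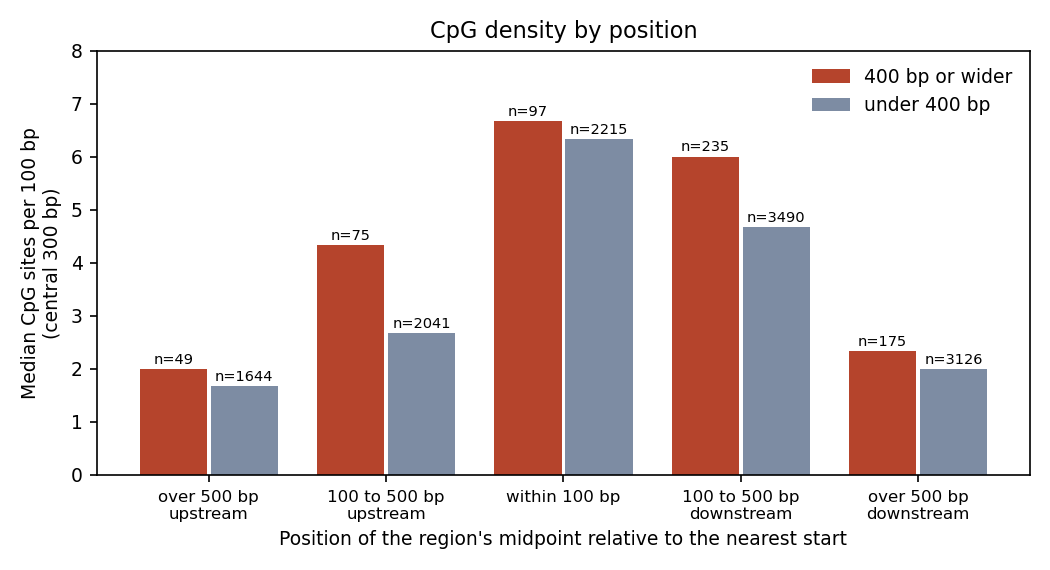
Median CpG sites per 100 bp in the central 300 bp (y axis) of broad (red) and narrower (grey) start-site regions, by the position of the midpoint relative to the nearest start (x axis), with the number of regions above each bar. Broad bars stand above narrower bars in each position class, with the tallest pair, 6.67 and 6.33, within 100 bp of the start.

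The members themselves split by CpG density. With under 2 CpG per 100 bp there were 130 members (20.6%, against 36.8% of narrower regions), with a median midpoint 460 bp downstream, and 13.1% of these contained the start. With 8 or more there were 157 (24.9%, against 18.8% of narrower regions), with a median midpoint 165 bp downstream, and 58.6% contained the start. The densest after Sertad4 were Kdm7a, a histone demethylase, at 16.81 CpG per 100 bp, Erbin, a scaffold of the cell's basolateral membrane, at 16.32, and Hnrnpa0, an RNA-binding protein, at 16.10. Among the poorest after Sfi1 were Slc25a22, a mitochondrial glutamate carrier, at 0.22 CpG per 100 bp and Ilf2, an RNA-binding factor, at 0.24. Within the members, width was weakly related to density (Spearman's rho 0.11 across 631 regions, given as a description).

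Short sequence motifs were counted on both strands in the central 300 bp, as a description of the letters only. The GC box core GGGCGG, the letters of Sp and Krüppel-like factor sites, was present in 38.8% of broad and 28.8% of narrower regions, and in 35.7% of 32851 RefSeq promoter windows of the same length (250 bases before to 50 after the start). TGACG, the short form of the cAMP response element, was present in 24.6% of broad, 17.6% of narrower and 20.8% of promoter windows. The whole element TGACGTCA, which contains TGACG, was found in 0.317% of broad, 0.479% of narrower and 1.79% of promoter windows. Motifs without CG were less frequent in broad regions. CCAAT was present in 21.9% of broad, 27.2% of narrower and 37.4% of promoter windows, and TATAAA in 6.02% of broad, 8.58% of narrower and 13.6% of promoter windows. AGAACA, the core letters of glucocorticoid receptor sites, was present in 12.5% of broad, 16.9% of narrower and 19% of promoter windows. The AP-1 site TGAGTCA was in 2.85% of broad, 3.60% of narrower and 5.2% of promoter windows. The other motifs counted were likewise less frequent in broad than in narrower regions. CCGGAA, the core of ETS factor sites, was in 11.3% of broad, 11.8% of narrower and 14.9% of promoter windows, and the E-box CACGTG in 4.6% of broad, 5.5% of narrower and 7.15% of promoter windows. AAGATGG, the core of YY1 sites, was in 4.44% of broad, 5.98% of narrower and 6.34% of promoter windows. GCGCATGC, part of the NRF1 site, was in 0.792% of broad, 1.08% of narrower and 2.71% of promoter windows, and TCTCGCGA in 0.317% of broad, 0.455% of narrower and 0.995% of promoter windows.

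Most members scored below the median of the condition 2 regions. By the authors' deposited table, broad regions had a median score of 5.48, narrower start-site regions a median of 4.96 and all condition 2 regions a median of 6.63. The score is the authors' own value for a region, and width entered the selection, so these are descriptions. In the authors' deposited table, 141 members (22.3%) and 26.5% of narrower start-site regions scored 6.63 or more. The authors' deposited table gives a score under 10 to 586 members (92.9%) and to 85.2% of narrower start-site regions. Across the members, width and score were nearly unrelated (Spearman's rho 0.06 over 631 regions).

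The highest scores came from sequence that the genome holds in several copies. Sequence was called multi-copy when over 50% of the 31-base words of a region occurred more than once in mm10. That was so for 11 members (1.74%, 0.873 to 3.10) and 310 narrower start-site regions (2.48%, 2.21 to 2.76), and for 7 of the 10 members with the highest scores. Gm10800 led with 44.48 in the authors' deposited table. Next were Gm10722, Gm10721, Gm10801 and Gm10718, predicted genes with no role given here, at 28.29, 25.68, 24.06 and 23.31 in the authors' deposited table. Of the 11, 6 lay within a single stretch of chromosome 9, from position 3000224 to 3035337. Reads from copies cannot be assigned to 1 of them by position, and the part of this in the scores was not tested. The highest scores in single-copy sequence in the authors' deposited table were 22.88 at Tvp23a, a Golgi vesicle protein, 21.97 at Edc3, an enhancer of mRNA decapping, and 20.81 at Trmt2a, a tRNA methyltransferase. The values given above for side and CpG density were 72.6% downstream and a difference of 1.59 CpG per 100 bp without multi-copy regions.

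**Figure D4:**
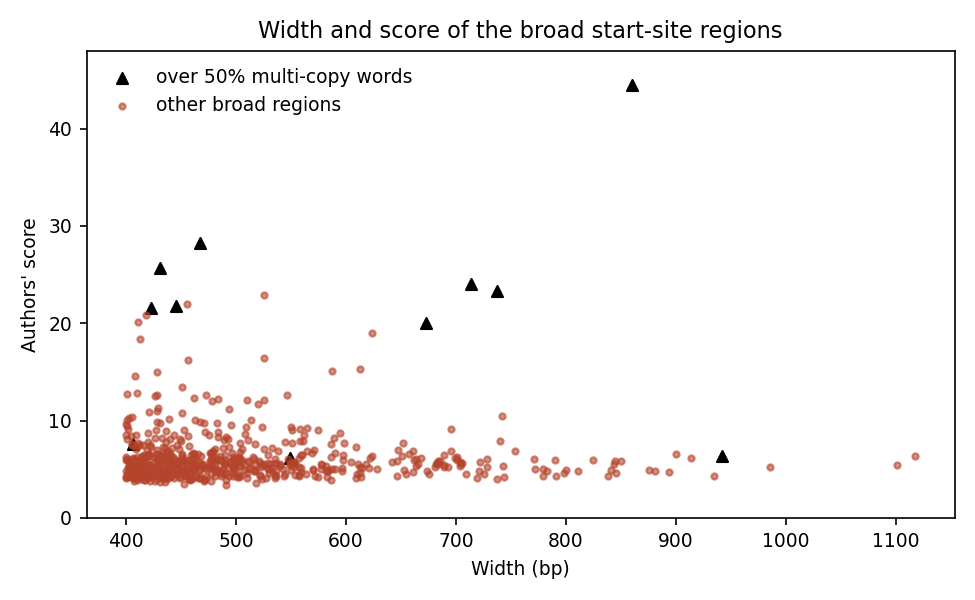
Width (x axis, bp) against the authors' score (y axis) for the 631 members, with multi-copy members as black triangles and all others as red points. The 15 widest have scores from 4.32 to 6.51, except the triangle of Gm10800 at 44.48.

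The 631 regions reached the start windows of 717 protein-coding genes, 3.27% of 21938 (3.04 to 3.51). Any condition 2 region at a start was carried by 8602 genes (39.2%), so 8.34% of these had a broad one. Of the 717 genes, 447 also had a narrower region (62.3%, 58.7 to 65.9). Summed over all starts of a gene, condition 2 regions covered a median of 670 bp in genes with a broad region and 274 bp in genes with narrower regions only. Of the 7885 genes with narrower regions only, 2092 (26.5%) reached 400 bp or more in sum through several narrower regions, so a gene without a broad region was not always a gene with little covered sequence. Genes with a broad region had a median of 5 annotated starts and a length of 22.5 kb, against 5 starts and 23.8 kb for genes with narrower regions only.

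More than 1 broad region was found at 16 genes (2.23%). Sfi1 had 5, of 686, 551, 462, 446 and 401 bp, and 17 condition 2 regions at its starts in all, 5622 bp together. Between 22.1% and 33.2% of the words in the 4 Sfi1 regions of low CpG density were multi-copy. The other 15 genes had 2 each. Lmna, which encodes lamins A and C of the nuclear lamina, had 728 and 504 bp, both in first introns of different transcripts. Alg6, a glucosyltransferase of N-glycan synthesis, had 754 and 456 bp, and Ttc39c had 701 and 488 bp. Atp5g2, the c subunit of ATP synthase, had 662 and 517 bp, and Fnip2, a folliculin partner, had 587 and 412 bp. Dusp1, a phosphatase of MAP kinases that glucocorticoids induce, had 538 and 435 bp. Aars, alanyl-tRNA synthetase, had 557 and 403 bp, and Cct5, a chaperonin subunit, had 525 and 435 bp. Gm10722 completed the 10 with the largest sums, in multi-copy sequence, with 673 and 467 bp.

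A condition 1 region at a start as well was rare. It was found at 6 of the 717 genes (0.837%, 0.308 to 1.81), against 124 of 7885 genes with narrower regions only (1.57%, 1.31 to 1.87) and 0.88% of all protein-coding genes. The 6 were Axl, a receptor tyrosine kinase, Cyth3, an exchange factor of Arf GTPases, Dek, a chromatin protein, Jade2, a partner of histone acetyltransferases, Zbed3 and Zfp638. At each of the 6 the condition 1 region lay apart from the broad region, and the smallest gap was 609 bp, at Zbed3.

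The functions of the genes were described by 39 gene lists, with the share of list genes that carried a broad region set beside the 3.27% of all protein-coding genes. The share was above that value in 19 lists and below it in 20, of which 14 had no gene. Of the 714 distinct gene names with a broad region, 101 (14.1%) were in any list, so most members lay outside these themes. A gene was counted when a region reached its start window, also where the nearest start was of another gene. This was so for Rpl4 (nearest start Zwilch), Med22 (Rpl7a), Wars (Wdr25) and Psmb9 (Tap1). It was also so for Dnajc14 (Tmem198b), Ndufb11 (Rbm10), Slc7a6os (Prmt7) and Hist2h2ab (Bola1). Sides given for list genes are relative to that nearest start. Lists are described and not tested. Lists also differed in the share of genes with any condition 2 region at a start (39.2% of all genes), which is given beside some of the counts.

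The highest share was that of immediate early and AP-1 genes, which are switched on within minutes of a stimulus. A broad region was carried by 6 of 27 (22.2%, 8.62 to 42.3), and any condition 2 region by 70.4%. Of those with any, 31.6% had a broad one, against 8.34% over all genes. These were Myc with 1101 bp, Nr4a2, an orphan nuclear receptor of neurons, with 721 bp, Dusp1 with 538 bp, Maff, a small Maf factor, with 527 bp, Jun, a subunit of AP-1, with 516 bp, and Ier5 with 410 bp. The Nr4a2 region began 1 bp before a start and ran 719 bp into the gene. In 4 of the 6 the widest region had its midpoint downstream of the start, with Dusp1 and Maff upstream. Their median CpG density was 8.92 per 100 bp, against 4.39 over all members.

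The lists of protein synthesis had shares of 5.13% to 14.3%, against 3.27% of all genes. Among cytosolic ribosomal proteins, 12 of 84 carried a broad region (14.3%, 7.61 to 23.6), with 79.8% carrying any, and 17.9% of these had a broad one. After Rpl38 came Rpsa with 595 bp, Rps14 with 517 bp and Rpl7a with 511 bp, a region that also reached Med22 of the Mediator complex. Apart from Rpl38 and Rpsa, these regions were 406 to 517 bp wide, and 7 of the 12 had the midpoint downstream of the nearest start. For the Rpl4 region, counted among these 7, that start was of Zwilch. The aminoacyl-tRNA synthetases, which charge tRNAs, had 5 of 37 (13.5%, 4.54 to 28.8), among them Farsb at 558 bp, Aars at 557 bp and Wars at 471 bp. Translation initiation factors had 6 of 55 (10.9%, 4.11 to 22.2), among them Eif4a3, an RNA helicase of the exon junction complex, at 653 bp, Eif2s2 at 553 bp and the cap-binding Eif4e at 488 bp. Mitochondrial ribosomal proteins were nearer to all genes, at 4 of 78 (5.13%, 1.41 to 12.6), with Mrps7 at 525 bp and Mrpl58 at 489 bp. Of the genes with any condition 2 region, a broad one was carried by 16.1% of the synthetases, 14% of the initiation factors and 8.16% of the mitochondrial ribosomal proteins, against 8.34% over all genes. The interval of the mitochondrial list contained the 3.27% of all genes.

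Lists of protein turnover, folding and splicing had shares of 7.14% to 10.4%. Of the genes named as proteasome subunits, 5 of 48 carried a broad region (10.4%, 3.47 to 22.7). The widest of these, Psmg3 at 664 bp, encodes an assembly chaperone and not a subunit, while Psmb4 at 564 bp, Psmb9 at 560 bp and Psmb2 at 545 bp encode beta subunits. Ubiquitin-conjugating enzymes and ubiquitin-specific proteases had 7 of 87 (8.05%, 3.30 to 15.9), with Ube2b at 825 bp, Usp35 at 744 bp, Usp12 at 522 bp and Ube2m at 459 bp. The Hsp70 and DnaJ chaperones had 4 of 56 (7.14%, 1.98 to 17.3), led by Hspa9, the mitochondrial Hsp70, at 596 bp and Dnajc14 at 561 bp. Splicing factors had 5 of 68 (7.35%, 2.43 to 16.3), with Sf3b4 at 657 bp and Hnrnpa0 at 646 bp. The intervals of the chaperones and the splicing factors contained the 3.27% of all genes. Of the genes with any condition 2 region, a broad one was carried by 16.1% of the proteasome list, 11.7% of the ubiquitin list, 12.1% of the chaperones and 9.43% of the splicing factors, against 8.34% over all genes.

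Enzymes that write or erase methyl marks on histones and DNA had 6 of 53 (11.3%, 4.27 to 23). All 6 act on histones: Ehmt2, Suv39h1 (434 bp) and Setd2 (449 bp) are methyltransferases, and Kdm7a (583 bp), Kdm4d (524 bp) and Kdm5c (419 bp) are demethylases. All 6 had the midpoint downstream of the start, as did 72.7% of all members. Their median CpG density was 7.86 per 100 bp, against 4.39 over all members. Of the list, 79.2% carried any condition 2 region, and 14.3% of these had a broad one, against 8.34% over all genes. Ep300, the acetyltransferase p300, was the single gene of 28 histone acetyltransferases and deacetylases (3.57%, 0.0904 to 18.3), with 466 bp.

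Cholesterol and fatty acid synthesis had 4 of 29 (13.8%, 3.89 to 31.7), with 82.8% carrying any condition 2 region. Cyp51, the lanosterol demethylase, had 666 bp, Fdft1, squalene synthase, 536 bp and Fasn, fatty acid synthase, 461 bp. At Cyp51, Fdft1 and Fasn the region lay upstream of the nearest start, with midpoints at -357.5, -599.5 and -707 bp.

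Neither the choline list nor the methionine and folate list had a broad region. Choline and phosphatidylcholine metabolism had 0 of 30 genes, which allows a share of up to 10%, and 50% of them carried a narrower condition 2 region. The methionine and folate cycle, which passes on methyl groups, had 0 of 30 as well (up to 10%), with 63.3% carrying a narrower one. The exact interval of both lists reached 11.6% and contained the 3.27% of all genes, so neither count sets these lists apart. Under a width limit of 300 bp, which more genes pass, their shares were 3.33% and 10%. Glucocorticoid signalling had 3 of 26 (11.5%, 2.45 to 30.2), which were Klf9 with 772 bp, Dusp1 with 538 bp and Ncoa2, a nuclear receptor coactivator, with 433 bp. The glucocorticoid receptor gene named in the series title was not among the 717 genes.

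Among other families, Krüppel-like and Sp factors had 2 of 26 (7.69%, 0.946 to 25.1), Klf7 and Klf9. TGF-beta ligands, receptors and Smads had 2 of 30 (6.67%, 0.818 to 22.1), with Tgfbr3 at 482 bp and Tgfb3 at 481 bp, and Mediator subunits likewise had 2 of 30, Med22 and Med10 (451 bp). Subunits of the respiratory chain and ATP synthase had 4 of 85 (4.71%, 1.30 to 11.6), with Atp5g2 at 662 bp and Ndufb11 at 454 bp, and mitochondrial carriers had 2 of 47 (4.26%, 0.520 to 14.5), Slc25a4 at 463 bp and Slc25a22 at 462 bp. The Zfp zinc finger genes had 12 of 391 (3.07%, 1.60 to 5.30), near all genes, led by Zfp959 at 624 bp, and 5 of the 12 had the midpoint downstream. The cell cycle and replication list had 1 of 34 (2.94%), Rb1 at 509 bp, although 85.3% of it carried any condition 2 region. Genes whose names begin with Rab had 2 of 69 (2.90%), and both, Rab3gap2 and Rab11fip5, encode partners of Rab GTPases and not the GTPases. Kinesins had 1 of 43 (2.33%), Kif3b at 530 bp. Solute carriers outside the mitochondria had 5 of 324 (1.54%, 0.503 to 3.56), with Slc12a2 at 586 bp and Slc19a2, a thiamine transporter, at 481 bp. That count includes Slc7a6os, which is not a carrier. Replication-dependent histones had 1 of 67 (1.49%), Hist2h2ab at 575 bp, a region whose nearest start was of Bola1.

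Of the developmental and cell-type lists, most had no broad region. Hox genes had 0 of 39 (up to 7.69%), forkhead factors 0 of 44 (up to 6.82%) and Sox factors 0 of 19 (up to 15.8%), although 33.3%, 38.6% and 36.8% of these lists carried a narrower region. Collagens, integrins and laminins had 0 of 86 (up to 3.49%), with 40.7% carrying a narrower region. Genes of mature neurons had 0 of 32 (up to 9.38%), with 21.9% carrying a narrower region. Potassium channels had 0 of 93 (up to 3.23%), glutamate and GABA receptors 0 of 48 (up to 6.25%) and clustered protocadherins 0 of 56 (up to 5.36%). A narrower region was carried by 11.8% of these channels, 12.5% of the glutamate and GABA receptors and 3.57% of the protocadherins. Over all genes, 39.2% carried any condition 2 region. Markers of astrocytes (0 of 12, up to 25%), oligodendrocytes (0 of 13, up to 23.1%) and microglia or leukocytes (0 of 18, up to 16.7%) had none either. In that order, 33.3%, 30.8% and 16.7% of these lists carried a narrower region. Fibroblast and mesenchyme markers had 1 of 24 (4.17%, 0.105 to 21.1), Twist2 with 551 bp. Olfactory and vomeronasal receptors, 1419 genes that are silent in most tissues, had 0 (up to 0.211%), and 0.775% of them carried a narrower region. Apart from these receptors, the exact interval of each list with a count of 0 contained the 3.27% of all genes, and the lowest of their upper ends was 3.89%, for potassium channels.

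**Figure D5:**
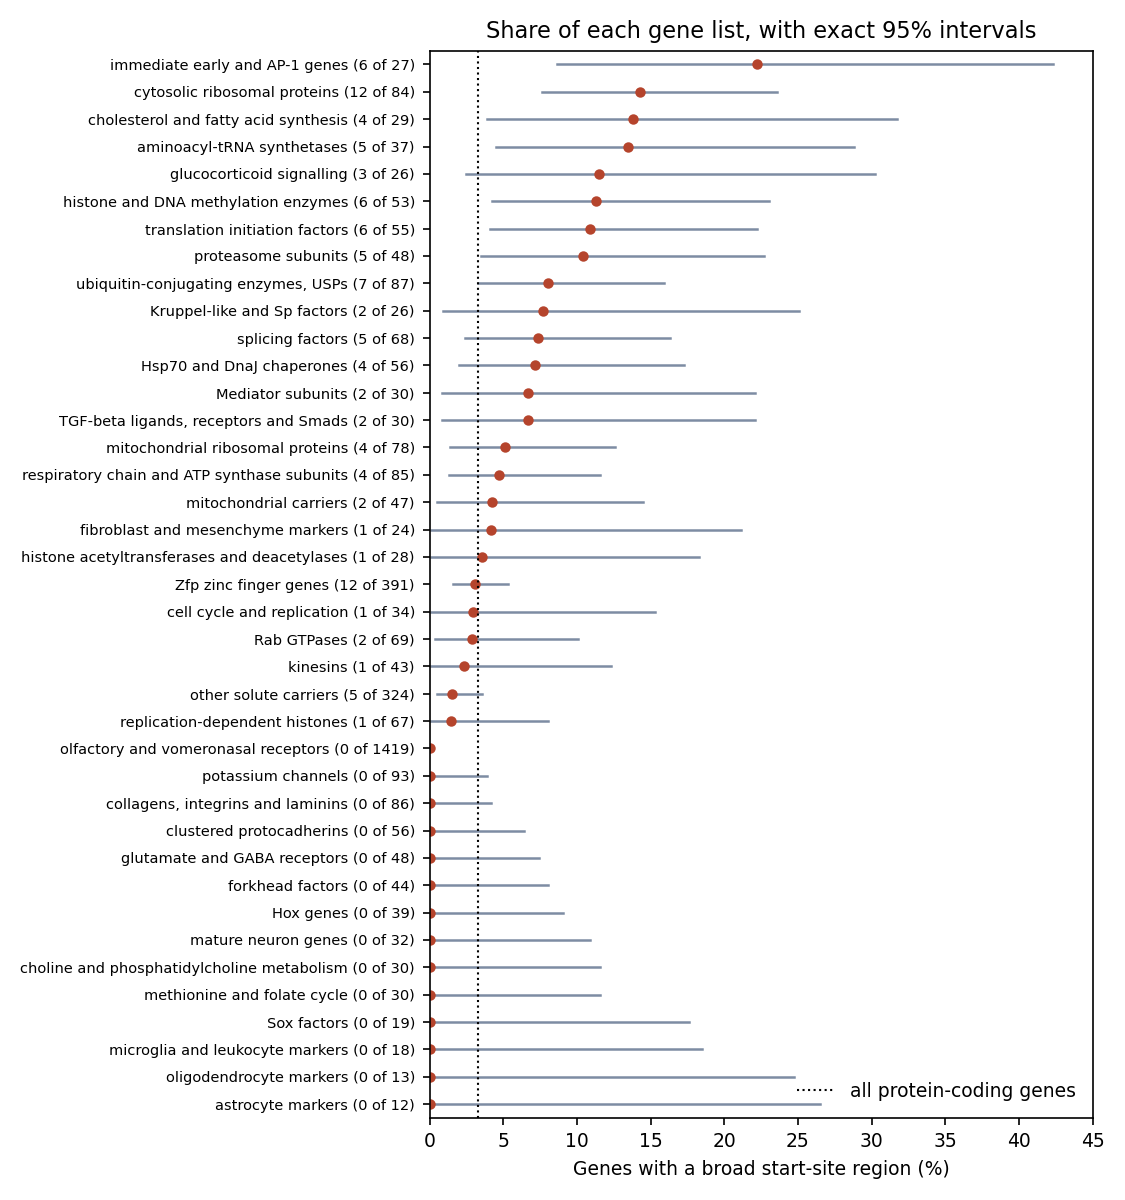
Percentage of the genes of each of the 39 lists with a broad start-site region (points), with exact 95% intervals (lines) and the counts beside each name. The dotted line marks the 3.27% of all protein-coding genes, and immediate early and AP-1 genes stand at the top with 22.2%.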

How the data were processed

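Libraries of H3K9ac ChIP DNA and of input DNA were sequenced. The submitters' processing notes name MACS2, Bowtie 1.0.0, CASAVA 1.8 and the build mm10, and per the series' design text the bdgdiff function of MACS2 called the differences between the choline levels. The deposited file lists regions unique to condition 1 or condition 2, per the file headers, with a position and a score that is the authors' own value. In MACS2 this score is a log10 likelihood ratio, but the column has no name. Regions common to both conditions are not in the list, and no source used here gives the scaling of the libraries, so a deeper or cleaner ChIP library could yield more and wider regions for its condition.

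Positions were set against GENCODE M21 and the RefSeq GRCm38.p6 sequence, the same build as mm10. A start was that of any transcript of a protein-coding gene, an overlap of 1 bp sufficed, and the nearest start was measured from the midpoint. Repeat copies were counted as 31-base words over the genome on both strands. Python 3.11.15, numpy 2.4.6, pysam 0.24.0 and numba 0.67.0 were used, and the steps were tested on simulated data. The planned design assumed a peak list; the file held differential regions, and the planned summaries were kept. The members and the gene lists were chosen with earlier results of these data known, so no list was tested. Named genes were those of the 15 widest and the 10 highest-scoring members, up to 10 with several broad regions, up to 4 per list by width and those at the threshold; others named were chosen after their values were seen. Some genes that this rule takes are left out of the text. Lists of families were drawn by name pattern, and 1 listed synthetase name was not in the annotation. Other widths, windows, start sets, score limits and chromosomes were tried. The AP-1 site was searched in both spellings, TGAGTCA and TGACTCA, which are reverse complements and gave the same counts.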

Additional observations from a re-analysis of the deposited data

How the results depend on the processing

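No paired analysis was possible because the list gives values per region and none per library. The numbers of regions and genes followed the thresholds by construction: 1693 regions and 1796 genes at 300 bp or more, 229 and 266 at 500 bp or more, and 141 and 154 with scores at or above the median. The share of broad regions with the midpoint downstream was 76.9% at 500 bp or more (narrower 62.5%), 79.4% with the 5′-most start of each gene (67.9%), 77.2% with basic transcripts (66.9%) and 68.8% with scores at or above the median (55.8%). With both edges downstream it was 51.7%, against 52.8% of narrower regions, the setting in which broad regions were not the higher ones. The difference in CpG density was 0.90 per 100 bp with scores at or above the median. No other planned setting, nor the 2 added after the data were seen (multi-copy regions left out, protein_coding transcripts only), moved a share or a density beyond its interval. Of 429 list shares under the alternatives, 387 stayed within the interval first found and 36 changed side of all genes. Between 16 and 24 of 39 lists lay above all genes. With no replicates and unknown depth, no value here has an error between cultures.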

Other observations

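The following gene families outside the lists were chosen after the values were seen, for their counts of broad regions, so they are given as values only, beside the 3.27% of all protein-coding genes and the 8.34% of those with any condition 2 region at a start. Importins and transportins, which carry cargo through nuclear pores, had a broad region at 4 of 18 genes, of which 15 had any: Cse1l with 577 bp, Tnpo1 with 498 bp, Kpna6 with 443 bp and Tnpo2 with 425 bp. The alpha and beta tubulins had 3 of 15 (10 with any), with Tubb4b at 523 bp and Tubb6 at 449 bp beside Tuba1a. Fanconi anaemia genes, which repair DNA crosslinks, had 3 of 10 (all 10 with any), with Fance at 597 bp, Fancg at 501 bp and Fancd2 at 453 bp. The LSm proteins of RNA metabolism had 3 of 13 (10 with any), Lsm14b at 454 bp, Lsm1 at 438 bp and Lsm12 at 406 bp. Among the STAT factors, 2 of 7 had a broad region and 6 had any: Stat3 with 456 bp and Stat6 with 416 bp, both wholly upstream of the nearest start. The TCP-1 chaperonin had 2 of 8 subunit genes (7 with any), Cct5 with 525 bp and Tcp1 with 431 bp.

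The 330 broad regions away from starts had a median width of 449.5 bp, a widest of 1373 bp and a median of 51.1% GC. Over 50% of their 31-base words were multi-copy in 26 of them (7.88%), against 1.74% of the broad regions at starts. The score 19.01, the commonest in the authors' deposited table, was given to 0 of the 631 broad start-site regions, which allows a share of up to 0.475%, and to 188 of 12516 narrower ones (1.5%). Away from starts, the authors' deposited table gives it to 0 of 330 broad regions (0%, 0 to 1.11) and to 2364 of 32018 narrower ones (7.38%).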
